A study of Mus musculus with 16 samples.

Results

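Potassium channel genes were examined in the RNA of microglia-labelled brain cells from mice with experimental autoimmune encephalomyelitis (EAE), a mouse model of multiple sclerosis, and from PBS-treated mice. All rows of the count and FPKM tables whose symbol began with Kcn, followed by subfamily letters and a number, were taken, which gave 93 of 21878 mRNAs, without regard to their values. FPKM is the level of an mRNA corrected for its length and for the size of the library. The mice were female C57BL/6 animals of wild-type genotype, 8 weeks old. The EAE group (n = 8 mice) received the myelin oligodendrocyte glycoprotein peptide MOG 35–55 in complete Freund's adjuvant, with 200 ng of pertussis toxin on days 0, 2 and 7. The control group (n = 8 mice) received PBS; the text does not spell out whether the adjuvant and the toxin were also given to it, so the peptide and these agents cannot be told apart here. In the treatment field of the labels the last peptide residue runs from 55 in EAE 1 to 62 in EAE 8, against 35–55 in the protocol. Brains were taken on day 14, at clinical scores of 3 to 4, and cells in the CD11b+/CD45int gate were sorted, with 1 library per mouse, named below by group and replicate number.

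Potassium channels let potassium leave or enter the cell, and so set the resting potential, end action potentials and buffer the potassium that active neurons release. Several families form pores: the voltage-gated channels (subfamilies A to D, F to H, Q, S and V), the inward rectifiers (J), the two-pore leak channels (K) and the channels opened by calcium or sodium or related to them (MA, N, T, U). The silent voltage-gated subunits (F, G, S, V) form no channel alone and join other voltage-gated subunits, whose gating they alter, and the auxiliary subunits (AB, E, IP, MB) bind to pores. In microglia, the two-pore channel Kcnk13 sets the resting potential, and Kcna3 and Kcnn4 are known from activated cells.

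The label was checked against cell markers. No defining marker of microglia, such as Tmem119 or P2ry12, was at 0 counts in any library. The summed FPKM of 17 microglia markers was 223–365 in EAE libraries and 207–341 in PBS libraries. That of 15 neuron markers was higher in every library, at 1768–2057 and 1992–2186. For 10 astrocyte markers the sums were 1213–1845 and 1414–1675, and for 10 oligodendrocyte markers 924–1300 and 1025–1243. Neutrophil markers, 10 genes, summed to 23.3–64.5 in EAE libraries and 9.58–24.4 in the controls, with S100a8, S100a9, Ngp and Ltf higher in the edgeR test. The libraries thus held RNA of neurons and other glia beside that of microglia, and the levels below are those of the mixture. In such bulk samples, fewer cells of a type and less RNA per cell cannot be told apart. EAE libraries held 24587443–30244215 counts and PBS libraries 26031889–34184576, of which the potassium channel genes took 0.748–0.811% and 0.773–0.843%. Libraries EAE 6, 7 and 8 and PBS 5, 7 and 8 were more alike than the others in earlier results of these data. No batch is named in the labels, so key values are also given within these 6 and within the other 10. The 6 were thus picked from these same data, so adjusted p values within them are no separate test of a gene. Calls and adjusted p values below are those over all 16 libraries unless stated otherwise.

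The promoters of the 3 channel genes with a lower level in EAE mice are printed to show the sequence at their starts. Each window runs from 250 bases before to 50 bases after the RefSeq start (GRCm38.p6), written 5′ to 3′ on the gene's strand, with CpG dinucleotides, the bases that DNA methylation can mark, in capitals. Kcnf1 is at chr12:17176839-17177138 on the minus strand, Kcng4 at chr8:119635631-119635930 on the minus strand and Kcnk1 at chr8:125994852-125995151 on the plus strand.
Kcnf1: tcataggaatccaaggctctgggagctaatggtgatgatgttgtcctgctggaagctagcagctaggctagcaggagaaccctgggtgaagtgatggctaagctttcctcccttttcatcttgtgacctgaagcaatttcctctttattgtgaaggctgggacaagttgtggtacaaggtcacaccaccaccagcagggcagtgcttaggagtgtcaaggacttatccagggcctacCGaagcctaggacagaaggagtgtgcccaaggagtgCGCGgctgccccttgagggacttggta
Kcng4: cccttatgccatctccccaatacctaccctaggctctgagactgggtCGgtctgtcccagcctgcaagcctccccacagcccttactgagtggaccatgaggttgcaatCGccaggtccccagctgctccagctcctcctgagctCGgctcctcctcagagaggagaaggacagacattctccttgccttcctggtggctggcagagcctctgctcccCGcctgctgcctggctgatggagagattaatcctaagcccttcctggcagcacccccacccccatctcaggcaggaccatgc
Kcnk1: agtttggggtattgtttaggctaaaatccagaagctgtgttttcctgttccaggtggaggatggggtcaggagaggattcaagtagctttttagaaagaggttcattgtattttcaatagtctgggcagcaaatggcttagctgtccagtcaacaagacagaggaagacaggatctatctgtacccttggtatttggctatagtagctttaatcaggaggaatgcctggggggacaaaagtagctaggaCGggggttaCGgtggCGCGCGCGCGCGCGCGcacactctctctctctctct
These windows held 3, 4 and 10 CpG, respectively. The median over all 32851 RefSeq windows was 7, and the median over the 93 windows of the 68 potassium channel genes with an entry was 9. As many CpG as in Kcnf1 were held by 76.7% of all windows, as many as in Kcng4 by 68.6% and as many as in Kcnk1 by 43.5%. No methylation was measured, and the counts describe the letters only. Kcnv1 had no entry.

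Most of the family was present in every library. At least 1 count was found in all 16 libraries for 85 of the 93 genes, and 70 had over 100 counts in each. The mean FPKM was at least 10 for 37 genes, 1 to under 10 for 33, 0.1 to under 1 for 16 and under 0.1 for 7. Kcne1, Kcnj1 and Kcnk16 had fewer than 16 counts in all and were not tested. The 93 genes lay on 19 chromosomes. For 7 of them, another gene of the table overlaps their span: Kcnab2, Kcnh1, Kcnh3, Kcnh7, Kcnj13, and Kcnip1 and Kcnmb1, which overlap each other on opposite strands. The strand setting of the counting is not given in the sources used here, so their counts are uncertain.

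Among the genes with high levels was Kcnab2, a cytoplasmic beta subunit. Its FPKM was 65.5 at the lowest, 71.6 at the median and 82.7 at the highest in EAE libraries and 72.1, 77.5 and 84 in PBS libraries. Kcnj10, the inward rectifier Kir4.1 through which astrocytes take up potassium, had medians of 56.6 and 66.0, and the ranges of the 2 genes overlapped. Below them stood the axonal channel Kcna1, at medians of 44.5 and 43.7, whose highest library, at 47.4, lay below the lowest library of Kcnj10, at 52.7. Kcnt1, opened by sodium, at medians of 47.4 and 41.1, and Kcnma1, the large-conductance calcium-activated channel, at 42.0 and 38.8, overlapped the range of Kcna1, and these 3 do not differ in level beyond their spread.

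**Figure D1:**
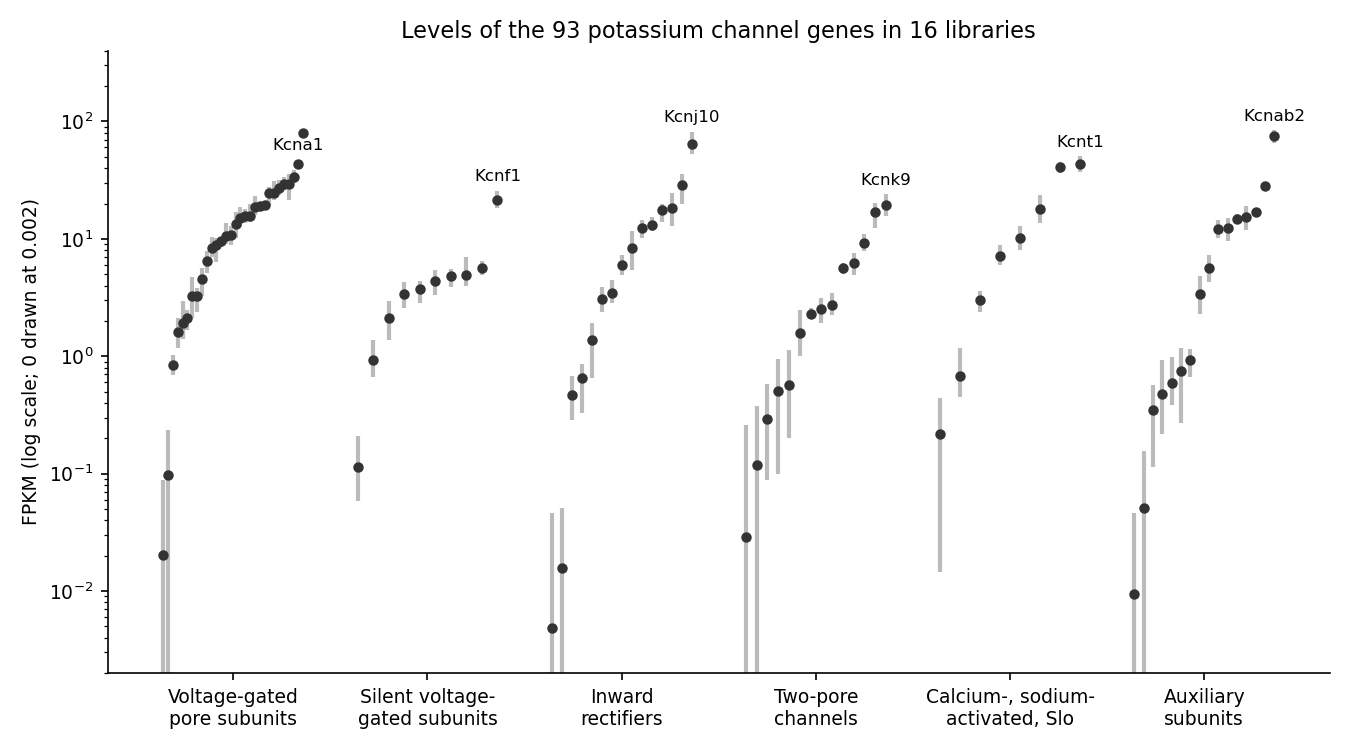
Level of each of the 93 potassium channel genes by family. The y axis is FPKM on a log scale; points are means over 16 libraries, ordered within each family, grey bars run from the lowest to the highest library, and 1 gene with a high mean is named in each family. Each family holds genes at levels over 10 FPKM and genes under 1 FPKM.

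Differences between EAE mice and PBS-treated mice were small throughout the family. The log2FC, the log2 of the fold of EAE over PBS, was within 0.25 of 0 for 71 of the 90 tested genes, and over 0.5 in size for 7. Over all mRNAs, 13973 of 17885 were within 0.25 of 0. The shares were similar, so small differences were not particular to the family. By the quasi-likelihood test of edgeR, 3 genes fell in EAE mice (Kcnf1, Kcng4 and Kcnk1) and 1 rose (Kcnv1) at an adjusted p under 0.05. This was 4 of 90 genes, or 4.44%, beside 2.42% of all 17885 mRNAs tested. By direction, the lower calls were 3.33% of the channel genes against 1.76% of all mRNAs and the higher call 1.11% against 0.66%. With so few calls, nothing particular to the family can be read from these shares. With the study's threshold of |log2FC| over 1 added, no channel gene was called in this fit. Of all mRNAs, 21 were (0.117%, with 0.0224% lower and 0.0951% higher). The study's own list of differentially expressed mRNAs is not set beside these calls. In edgeR, 20 of 90 had an unadjusted p under 0.05 (22.2%, against 17.4% of all mRNAs). Of these, 16 were lower (17.8%, against 9.52%) and 4 higher (4.44%, against 7.92%). DESeq2 called 8 genes at any fold (8.89%, against 5.03% of all mRNAs). For no channel gene were the FPKM values of the groups free of overlap, against 0.263% of all mRNAs.

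The median log2FC of the tested channel genes was −0.05, with 62.2% of them below 0. Over all mRNAs the median was 0.01, with 47.3% below 0. When libraries were scaled by their totals instead of TMM, 48.9% of the channel genes and 34.6% of all mRNAs were below 0. The side of 0 on which a gene with a small difference falls thus depended on the scaling.

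**Figure D2:**
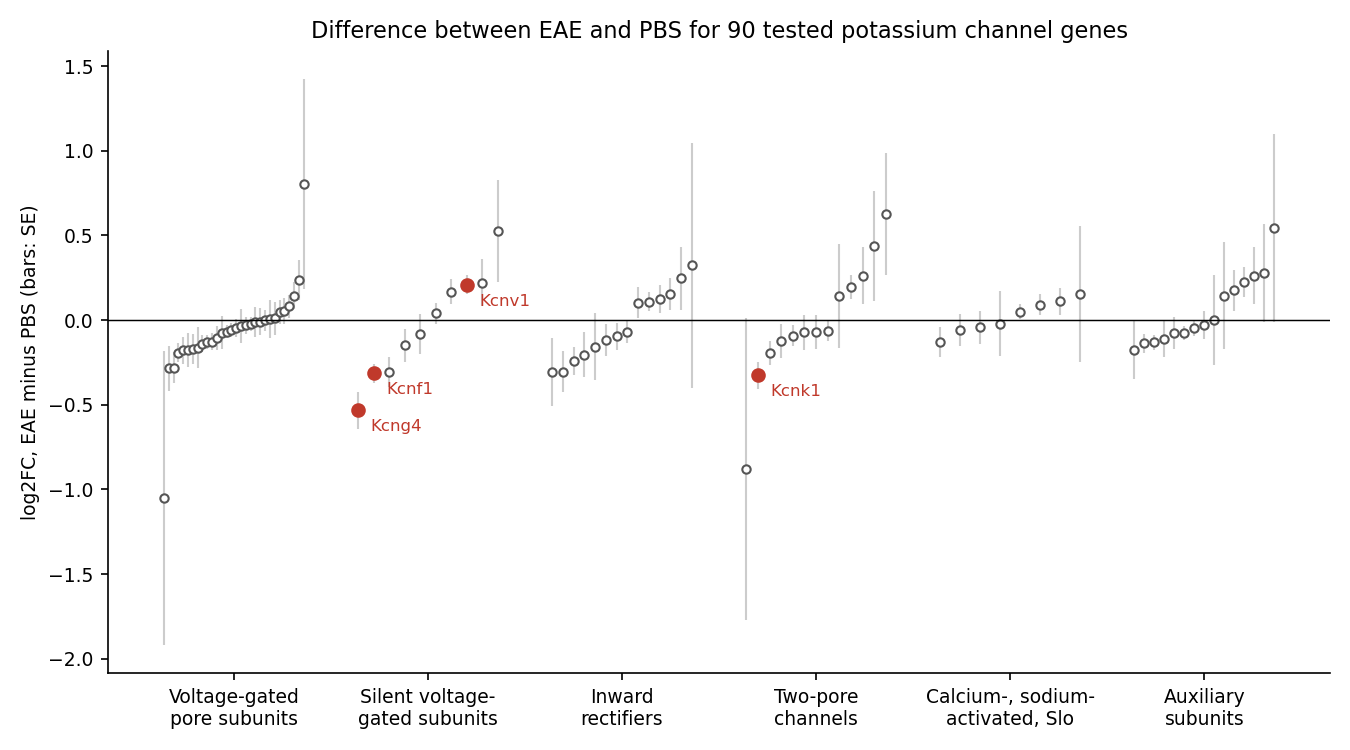
Difference between EAE and PBS for the 90 tested potassium channel genes. The y axis is log2FC (EAE minus PBS) with its SE, genes are ordered within each family, and filled red points have an adjusted p under 0.05 by the quasi-likelihood test of edgeR. Of the 4 filled points, 3 belong to silent voltage-gated subunits, and the wide bars belong to genes with few counts.

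Silent voltage-gated subunits held 3 of the 4 calls. Of these 10 genes, 2 fell, 1 rose and 7 did not pass the test, where 1.76% of all mRNAs fell and 0.66% rose. Of the 10, 5 were above and 5 below 0, with a median log2FC of −0.02. Their summed FPKM was 47.3–51.9 in EAE libraries and 51.6–55.7 in PBS libraries. This sum was weighted to the called gene Kcnf1, the most abundant of the 10, with mean FPKM of 19.5 and 23.4. The called genes did not move in 1 direction. The summed neuron markers were 1768–2057 FPKM in EAE mice and 1992–2186 in controls, with medians of 1950 and 2039. Median sums were 1336 and 1481 for astrocyte markers, 974 and 1082 for oligodendrocyte markers, and 320 and 246 for microglia markers. The part of these cell types in the calls was not tested.

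Kcnf1 (Kv5.1; chr12:17172100-17176888, GRCm38) had the smallest p-value of the family. In EAE libraries its FPKM was 18.1 at the lowest, 19.2 at the median and 21.6 at the highest, and in PBS libraries 20.0, 23.3 and 25.8. All 8 EAE libraries lay below the PBS median and 6 lay below the lowest PBS library, PBS 6. It fell by 19.6%, for a log2FC of −0.32 ± 0.05 (SE) and a Benjamini-Hochberg adjusted p = 0.00624 in edgeR. It was called in all 16 edgeR fits that left out 1 library, with an adjusted p of at most 0.0178, and the log2FC was −0.42 within the 6 libraries most alike and −0.26 within the other 10, where its adjusted p was 0.204.

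Kcng4 (Kv6.4; chr8:119623854-119635680) was less abundant than Kcnf1 by FPKM and had the largest log2FC of the called genes. Its FPKM was 1.37, 1.76 and 2.15 (lowest, median, highest) in EAE libraries and 2.05, 2.41 and 2.98 in PBS libraries. Again, 6 EAE libraries lay below the lowest PBS library, and only EAE 1 and EAE 4 reached the PBS range. It fell by 30.9%, with a log2FC of −0.53 ± 0.11 (SE) and an edgeR adjusted p = 0.0128. It stayed called in all 16 fits without 1 library, with an adjusted p of at most 0.0372, and its log2FC was −0.69 within the 6 libraries most alike and −0.45 within the other 10 (adjusted p = 0.204).

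Kcnv1 (Kv8.1; chr15:45106284-45114920) was the channel gene that rose. Its FPKM was 4.89, 5.24 and 5.52 in EAE libraries and 3.88, 4.40 and 5.23 in PBS libraries. The overlap came from PBS 4, which at 5.23 stood above the other 7 PBS libraries, whose highest value was 4.48, and without which the groups did not overlap. It rose by 15.6%, with a log2FC of 0.21 ± 0.06 (SE) and an edgeR adjusted p = 0.0479. This call was lost in 13 of the 16 fits without 1 library and was kept only without EAE 4 (0.0177), EAE 5 (0.0324) or PBS 4 (0.00817). Without each of the other 13 it was 0.0594–0.102, and with RLE size factors it was 0.0503. Its log2FC was 0.34 within the 6 libraries most alike and 0.13 within the other 10 (adjusted p = 0.604).

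Among the other silent subunits, Kcng1 was nearest to the threshold. Its FPKM was 3.98, 4.47 and 5.16 in EAE libraries and 4.53, 5.09 and 7.01 in PBS libraries, with 5 EAE libraries below the lowest PBS library. The log2FC was −0.31 ± 0.09 (SE) at an edgeR adjusted p = 0.0639, and its adjusted p was 0.0215 with DESeq2 and 0.0421 with a term for the 6 libraries most alike. It was called without EAE 4 (0.0235) and without PBS 1 (0.0450). Kcns2, the most abundant Kcns gene, had medians of 5.65 and 5.49 (log2FC 0.04). Kcnv2 had 9–36 counts in EAE libraries and 9–21 in PBS libraries, with a log2FC of 0.53 ± 0.30 (SE) and an edgeR adjusted p = 0.386.

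**Figure D3:**
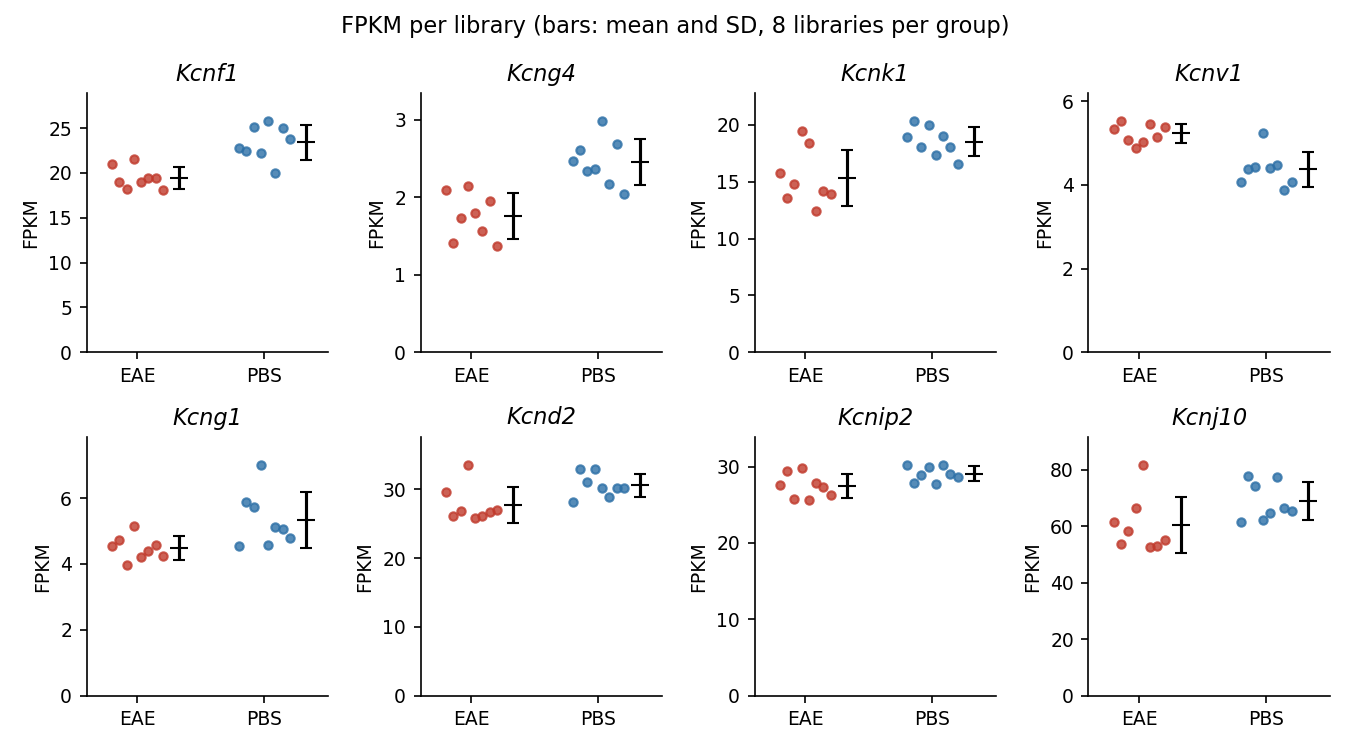
FPKM of 8 potassium channel genes in each library. Each panel is 1 gene, points are the 8 EAE libraries (red) and the 8 PBS libraries (blue), bars give mean and SD, and the y axes start at 0. The groups overlap in every panel.

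Of the 30 tested voltage-gated pore subunits, edgeR's quasi-likelihood test called 0, while 7 had an unadjusted p under 0.05, all lower in EAE mice, against 9.52% of all mRNAs lower at this p. Of the 30, 22 were below 0, against 47.3% of all mRNAs. DESeq2 called 2, Kcnd2 and Kcnd3 (3.37% of all mRNAs were lower by DESeq2), and the edgeR exact test 1, Kcnd2. The A-type channels Kcnd2 and Kcnd3, which open transiently below the firing threshold in dendrites, and their calcium-binding partner Kcnip2 lay next to the threshold. Kcnd2 had FPKM values of 25.9, 26.8 and 33.6 in EAE libraries and 28.1, 30.2 and 33 in PBS libraries. EAE 4 was the highest of all 16, whereas 6 EAE libraries lay below the lowest PBS library. Its log2FC was −0.19 ± 0.06 (SE) at an edgeR adjusted p = 0.0734, and without EAE 4 its adjusted p was 0.00617. Kcnd3 had medians of 18.9 and 20.3 and a log2FC of −0.13 ± 0.04 (SE) and an edgeR adjusted p = 0.114. For Kcnip2 the FPKM was 25.6, 27.4 and 29.8 in EAE libraries and 27.7, 28.9 and 30.2 in PBS libraries, with a log2FC of −0.13 ± 0.04 (SE) and an edgeR adjusted p = 0.0967, and without EAE 4 its adjusted p was 0.0307.

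Other voltage-gated subunits differed by less than, or little more than, the spread between libraries. Kcnh2, the ERG channel, had FPKM values of 10.4, 12.4 and 14 in EAE libraries and 10.2, 15.9 and 16.8 in PBS libraries. All 8 EAE libraries lay below the PBS median, but 1 PBS library was the lowest of all, and the log2FC was −0.28 ± 0.09 (SE) at an edgeR adjusted p = 0.102, or 0.0174 without PBS 4. Kcnc1, the Kv3 channel of fast-spiking neurons, had medians of 23.9 and 27.0 (log2FC −0.18, SE 0.08, adjusted p = 0.241). Kcnh3 had medians of 27.4 and 31.7 (log2FC −0.17, SE 0.09, adjusted p = 0.332). For Kcna1 the log2FC was −0.02 (SE 0.04), with a 95% interval of −0.11 to 0.06. Kcna1 was above 0 with library totals.

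Of the 13 tested two-pore channels, which carry leak currents, 1 fell (1.76% of all mRNAs did), and 8 were below 0 (47.3% of all mRNAs). Kcnk1 (TWIK-1; chr8:125995170-126030685), found in astrocytes and neurons, had FPKM values of 12.4, 14.5 and 19.4 in EAE libraries and 16.6, 18.5 and 20.3 in PBS libraries. EAE 4 and EAE 5 lay inside the PBS range, and the other 6 EAE libraries lay below it. It fell by 20.2%, with a log2FC of −0.33 ± 0.08 (SE) and an edgeR adjusted p = 0.0305. The call was lost without EAE 1, 2, 3, 6, 7 or 8 or PBS 2, 3 or 7, with adjusted p values of 0.0532–0.0740, and kept in the other 7 fits without 1 library, down to 0.00333 without EAE 4. It was also lost with library totals (0.0669) and with limma at pseudocounts of 0.1 (0.0735) and 1 (0.0728). The log2FC was −0.39 within the 6 libraries most alike and −0.30 within the other 10 (adjusted p = 0.234).

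Kcnk2 (TREK-1), opened by stretch and lipids, had FPKM values of 7.85, 8.71 and 10.7 in EAE libraries and 8.36, 9.83 and 11 in PBS libraries. Its log2FC was −0.19 ± 0.07 (SE) at an edgeR adjusted p = 0.154, and its adjusted p was 0.0338 without EAE 4. Kcnk9 (TASK-3), an acid-sensitive leak channel, had higher values in EAE mice, at 16.9, 22.1 and 23.9 against 15.5, 17.2 and 20.8. Of its EAE libraries, 5 lay above the highest PBS library, and the log2FC was 0.19 (SE 0.07, adjusted p = 0.152; 0.0395 without EAE 5). Kcnk9 had a log2FC of 0.41 within the 6 libraries most alike and 0.06 within the other 10. Kcnk18 and Kcnk7 were present at under 1.2 FPKM and had log2FC values of 0.63 (SE 0.36) and 0.44 (SE 0.33), neither of which passed the test.

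**Figure D4:**
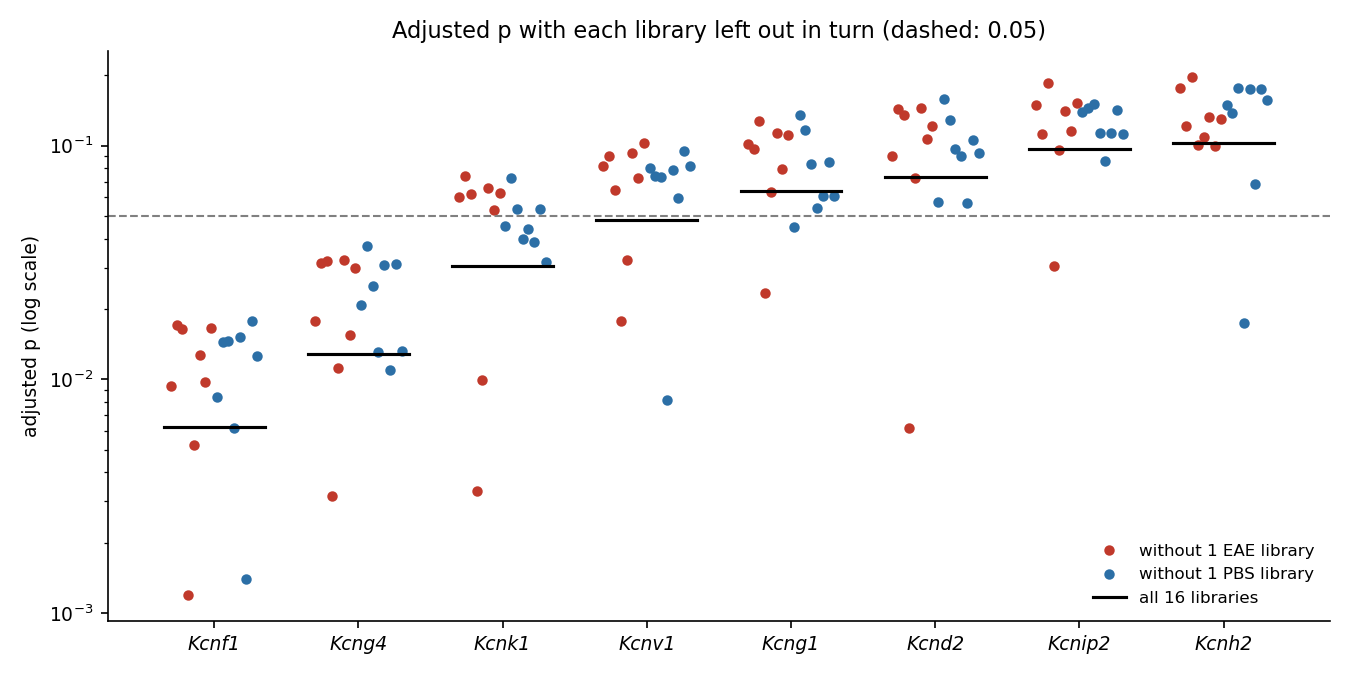
Adjusted p of 8 potassium channel genes when each library was left out in turn. The y axis is the adjusted p of the edgeR test on a log scale, black lines are the values with all 16 libraries, points are the 16 fits without 1 EAE library (red) or 1 PBS library (blue), and the dashed line is 0.05. Kcnf1 and Kcng4 stay under the line in all 16 fits, whereas Kcnk1 and Kcnv1 cross it.

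Of the 14 tested inward rectifiers, which pass potassium into the cell more readily than out, edgeR called 0, DESeq2 called 0, and 2 reached an unadjusted p under 0.05 (17.4% of all mRNAs did). Kcnj10 had FPKM values of 52.7, 56.6 and 81.8 in EAE libraries and 61.6, 66.0 and 77.9 in PBS libraries. In this gene 6 EAE libraries lay below the lowest PBS library, while EAE 5 lay above the highest. The log2FC was −0.24 ± 0.08 (SE) at an edgeR adjusted p = 0.123, and without EAE 5 its adjusted p was 0.00992. Within the 6 libraries most alike, where edgeR called 24.1% of all mRNAs, the log2FC was −0.32 (edgeR adjusted p = 4.95e-08). Within the other 10 it was −0.20 (0.558). Kcnj16 (Kir5.1), which pairs with Kcnj10 in astrocytes, had medians of 7.33 and 8.62 (log2FC −0.20, SE 0.13, adjusted p = 0.456). With Kcnk1, which is found in neurons too, these genes form a list of 3 channels of macroglia. All 3 were below 0, as were 47.3% of all mRNAs. Only Kcnk1 was called, where 1.76% of all mRNAs were called lower, and its call was lost without some libraries. Beside this list stand the astrocyte markers, of which 8 of 10 were below 0. Of these markers, Fgfr3 was lower and Gfap, the intermediate filament of reactive astrocytes, higher in EAE mice in the edgeR test. Their part in these values was not tested.

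The vascular and choroid plexus channels did not pass the test. Kcnj8 (Kir6.1), the pericyte pore of the ATP-sensitive channel, had medians of 1.30 and 1.49 (log2FC −0.16, SE 0.20), and Kcnmb1, the smooth muscle beta subunit, 0.404 and 0.300 (log2FC 0.15, SE 0.31). For Kcnmb1 the log2FC was −0.93 within the 6 libraries most alike and 0.95 within the other 10. Kcnj13 (Kir7.1), an epithelial channel, had medians of 3.22 and 2.75, with all 8 EAE libraries above the PBS median and a log2FC of 0.16 ± 0.09 (SE) and an edgeR adjusted p = 0.416. Kcne2, a subunit of choroid plexus channels, had a log2FC of 0.28 (SE 0.29). The summed choroid markers went the other way, at 116–190 FPKM in EAE libraries and 142–305 in PBS libraries, with Ttr lower.

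Over all 16 libraries, channels known from microglia and macrophages were not called in either direction by edgeR. Within the 6 libraries most alike, edgeR called Kcnk13 lower and Kcnj2 higher, where 24.1% of all mRNAs were called. Of the 9 genes on this list, 4 were above and 5 below 0, with a median log2FC of −0.01, and 2 (Kcna5 and Kcnab2) had an unadjusted p under 0.05, which 17.4% of all mRNAs had. DESeq2 called 0. Kcnk13 (THIK-1) had FPKM values of 1.92, 2.49 and 3.11 in EAE libraries and 2.16, 2.53 and 3.01 in the controls, and its log2FC of −0.07 (SE 0.10) had a 95% interval of −0.26 to 0.12. It was −0.38 within the 6 libraries most alike (edgeR adjusted p = 0.0333) and 0.11 within the other 10 (0.842). Kcna3 (Kv1.3), at medians of 10.2 and 10.5, had a log2FC of −0.01 (SE 0.09, 95% interval −0.18 to 0.16), which was above 0 with library totals. Kcnn4 (KCa3.1) had only 12–21 counts per EAE library and 1–36 per PBS library, and its interval of −0.63 to 0.94 leaves its difference undetectable at this depth.

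The remaining genes of this list were also not called over all 16 libraries. Kcnj2 (Kir2.1), the inward rectifier of resting microglia in culture, had medians of 6.72 and 5.50, with 5 EAE libraries above the highest PBS library and a log2FC of 0.13 ± 0.08 (SE) and an edgeR adjusted p = 0.454. The log2FC of Kcnj2 was 0.38 within the 6 libraries most alike (edgeR adjusted p = 0.000165) and −0.03 within the other 10 (0.957). Kcnk6 had medians of 1.63 and 1.26 (log2FC 0.26, SE 0.17). For Kcna5, with medians of 3.09 and 3.22, the log2FC was −0.28 (SE 0.13, adjusted p = 0.269), for Kcnab2 it was −0.14 (SE 0.05, adjusted p = 0.192), and for Kcnk12 −0.12 (SE 0.10). Kcne3 had at most 13 counts in any library. Beside these, 15 of 17 microglia markers were above 0, and Trem2 and Itgam rose in the edgeR test. Itgam encodes CD11b, the antigen of the sort.

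Over all 16 libraries, calcium- and sodium-activated channels showed no call among 8 genes, and 0 had an unadjusted p under 0.05 (edgeR), with 0 calls by DESeq2. All 8 had a |log2FC| under 0.25, as had 13973 of all 17885 mRNAs tested. For Kcnma1 all 8 EAE libraries, at 41.0–43.5 FPKM, lay above the PBS median of 38.8, and the log2FC was 0.05 ± 0.04 (SE) at an edgeR adjusted p = 0.583. Kcnt1 had a log2FC of 0.09 (SE 0.06), and Kcnn2, the SK2 channel of the afterhyperpolarization, −0.04 (SE 0.10), which was above 0 with library totals. Within the 6 libraries most alike, edgeR called 24.1% of all mRNAs, and 11% were called higher. Among the channel genes called there were Kcnma1 (log2FC 0.12, adjusted p = 0.00160) and Kcnt1 (0.20, 7.33e-05). Within the other 10, the log2FC was 0.01 for both (edgeR adjusted p = 0.991 and 0.981). Kcnu1, known from sperm, had 50–111 counts per EAE library and 54–99 per PBS library (log2FC −0.02, SE 0.19, above 0 with library totals). Of 15 tested auxiliary subunits, edgeR called 0, DESeq2 called 1 (Kcnip2), and 3 reached an unadjusted p under 0.05 (17.4% of all mRNAs). Apart from Kcnip2 and Kcnab2, the large-conductance subunit Kcnmb4 had a log2FC of −0.03 (SE 0.08, above 0 with library totals) and Kcne1l −0.18 (SE 0.17).

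Some channel genes followed the marker sum set beside them across the 16 libraries. Whether they also followed other marker lists, or other genes these lists, was not tested. Of 5 relations computed, each of 1 gene to 1 list, 4 are given here. Kcnj10 had the largest r of these 4, to the astrocyte markers, with Pearson's r = 0.931 and Spearman's rho = 0.959 (permutation p = 1e-05 for both, the smallest that 100000 resamples can give; 5e-05 adjusted over the 5 relations). The r was 0.975 within the EAE group, 0.880 within the PBS group, 0.969 within the 6 libraries most alike, 0.902 within the other 10 and 0.902 without EAE 5 and EAE 6, the libraries farthest from the median. Kcnj8 followed the mural markers, itself left out, with r = 0.715 and rho = 0.729 (permutation p = 0.00248 and 0.00214, adjusted 0.0062 and 0.00535), and r was 0.588 within the EAE group, 0.873 within the PBS group, 0.702 within the 6 libraries most alike, 0.813 within the other 10 and 0.717 without EAE 5 and EAE 7.

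The other relations given here did not pass the test. For Kcnk13 and the 17 microglia markers, r was 0.349 and rho 0.403 (permutation p = 0.184 and 0.123, adjusted 0.231 and 0.154), with r = 0.556 within the EAE group, 0.189 within the PBS group, 0.138 within the 6 libraries most alike, 0.587 within the other 10 and 0.384 without EAE 4 and EAE 5. For Kcnj13 and the choroid markers, r was 0.0184 and rho −0.191 (permutation p = 0.945 and 0.476, adjusted 0.945 and 0.476), with r = 0.357 within the EAE group, 0.694 within the PBS group and −0.301 without PBS 4 and PBS 6. Its r was −0.934 within the 6 libraries most alike and −0.182 within the other 10, so the sign depended on how the libraries were divided. All points share their library, and so its depth and scaling.

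**Figure D5:**
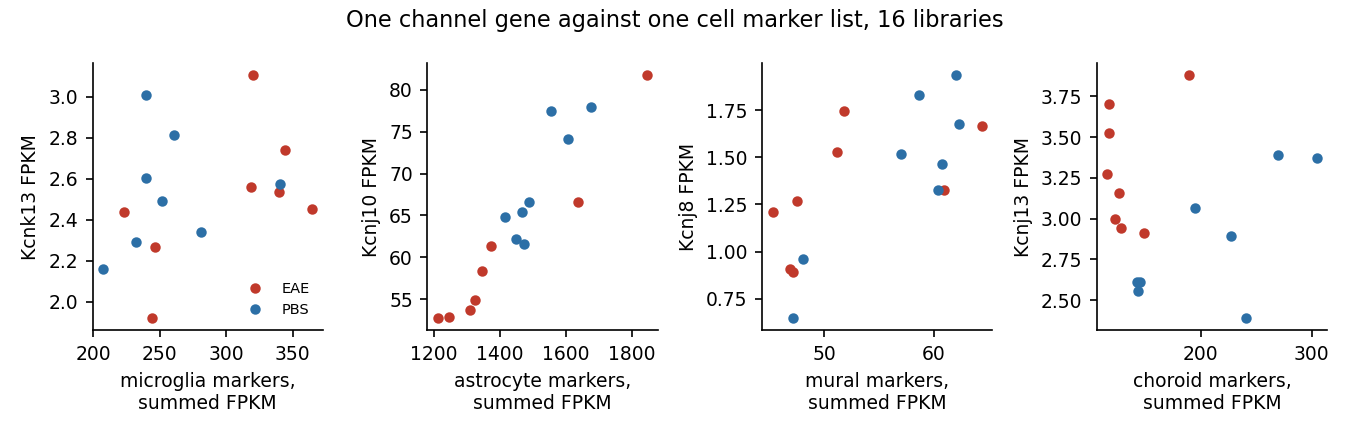
FPKM of 4 channel genes against the summed FPKM of 1 marker list each. Each point is 1 library (8 EAE in red, 8 PBS in blue), and both axes are linear and do not start at 0. Kcnj10 rises with the astrocyte markers in both groups (r = 0.931), whereas Kcnk13 is scattered against the microglia markers (r = 0.349).

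Genes that work beside potassium channels were given from a list of 26: the sodium-potassium pump, which restores the gradient, potassium-chloride transporters, HCN channels and channel partners. Of these, 8 fell and 0 rose in the edgeR test at any fold (30.8%, against 1.76% of all mRNAs for lower calls); 13 had an unadjusted p under 0.05 in the lower and 2 in the higher direction (9.52% and 7.92% of all mRNAs), and DESeq2 also called 8 lower (3.37% of all mRNAs). The list was added after the data were seen, so these shares describe the list and test nothing. Named here are 6 of the 8 lower genes.

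Atp1b1, a beta subunit of the pump, had FPKM values of 206, 272 and 345 in EAE libraries and 330, 351 and 401 in the controls. All but 1 EAE library lay below the lowest control, and it fell by 25.3% (log2FC −0.42, SE 0.07, adjusted p = 0.00624 in the edgeR test). Dpp6, which brings Kcnd channels to the membrane, had FPKM values of 44.1, 53.2 and 55.6 in EAE libraries and 57.9, 60.8 and 61.2 in the controls, with no overlap, and a log2FC of −0.25 ± 0.05 (SE) and an edgeR adjusted p = 0.00740. Both genes were called in all 16 fits without 1 library. Amigo1, a channel partner (log2FC −0.21, adjusted p = 0.0294), Slc12a5, the neuronal potassium-chloride transporter KCC2 (−0.19, 0.0309), Atp1b2 (−0.19, 0.0439) and Hcn2 (−0.28, 0.0455) lost their calls without some libraries, with adjusted p values up to 0.0720, 0.0778, 0.102 and 0.111, respectively, in each case without PBS 2. Beside these, 14 of 15 neuron markers were below 0, with Syt1 and Gad1 lower, and the part of the neuron share in these values was not tested.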

How the data were processed

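RNA-seq was performed on 16 libraries of sorted brain cells (8 EAE, 8 PBS). Per the labels and methods, the authors built stranded total RNA libraries after removal of ribosomal RNA, aligned reads to GRCm38 with HISAT2 2.1.0 and counted them with HTSeq 0.11.2; the annotation and strand setting are not given in the sources used here. The authors deposited raw counts per gene and, for the same genes, FPKM values; FPKM scaled as counts over the library's total. DESeq2 1.22.2 is named in the submitters' processing notes and edgeR in the methods.

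Counts were tested here with edgeR 4.0.16 in R 4.3.3: TMM, quasi-likelihood, genes with at least 16 counts in total, Benjamini-Hochberg over all 17885 genes, two-sided. The SE is |log2FC| over the root of F, and the 95% intervals of log2FC were built from it. The fit was checked on simulated counts. Alternatives were the edgeR exact test, DESeq2 1.42.0, limma 3.58.1 on log2(FPKM + 0.1) and log2(FPKM + 1), RLE size factors, library totals, other filters, robust dispersions, a replicate block, library sets and leaving out each library. Relations used permutation tests with 100000 resamples. Positions are from the GENCODE annotation of GRCm38.

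Genes named are those with an adjusted p under 0.05, the 12 smallest p-values, the lists of microglial, mural, choroid plexus and macroglial channels, the highest FPKM per subfamily, and the 5 largest |log2FC| among genes with a mean of at least 10 counts; genes named for an overlap or for too few counts were chosen after their values were seen. Some genes that the rule names are not reported here. The members and lists were chosen with earlier results of these data known.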

Additional observations from a re-analysis of the deposited data

Results flagged for a closer look

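In 78 groups of 8 libraries, from 39 named genes in EAE and PBS mice, 4 had a library far from the others by Dixon's criterion for the gap to the nearest library over the group's range. Chance alone gives such a gap in about 1 group of 20. All 4 were the highest of their group, in EAE 4 or PBS 4. Kcnk2 had an FPKM of 10.69 in EAE 4, with the next library at 9.069. Kcnu1 had an FPKM of 1.172 in EAE 4, from 111 counts, with the next at 0.7697. Kcnma1 had an FPKM of 45.39 in PBS 4, with the next at 40.25. Kcnv1 had an FPKM of 5.233 in PBS 4, with the next at 4.48.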

How the results depend on the processing

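In 624 values of 39 named genes with 1 library left out, 576 kept direction and side of the threshold, 22 lost the call, 8 gained one and 18 reversed; in 506 values under the other alternatives, the numbers were 451, 9, 21 and 25. The cause of these changes was not tested, apart from the fewer libraries in some fits. With the main fit, 4 channel genes were called (3 lower, 1 higher), and 2.42% of all mRNAs in either direction. DESeq2 gave 8 (7 lower), and 5.03% of all mRNAs in either direction. The exact test gave 5 lower, where 2.71% of all mRNAs were lower. A term for the 6 libraries most alike gave 5 lower, where 2.94% of all mRNAs were lower. RLE size factors gave 0 higher, where 0.632% of all mRNAs were higher. Only the 6 libraries most alike gave 31 calls (19 lower, 12 higher; 24.1% of all mRNAs were called), and only the other 10 gave 0 calls (0 lower, 0 higher; 0.0745% of all mRNAs). Leaving out 1 library gave 2–8 calls (2–7 lower, 0–3 higher): 8 without EAE 4 (7.38% of all mRNAs), 7 without PBS 4 (3.2%), 6 without EAE 5 (5.05%), and 2 without EAE 1, 2, 3, 6, 7 or 8 or PBS 2, 3 or 7 (0.807–2.04%), so the share of all mRNAs called moved too. Genes below 0 numbered 51–57 and above 0 33–39, and 0 passed |log2FC| over 1 in each of these 16 fits. The partner genes, added after the data were seen, went from 8 lower to 4 with limma at either pseudocount and with library totals. They went to 14 lower (and 1 higher) in the 6 libraries and to 1 lower in the other 10. Without 1 library they went to 4–9 lower and 0 higher (4 without EAE 1, EAE 2, PBS 2, PBS 5 or PBS 7, and 5 without EAE 3, EAE 6, PBS 3 or PBS 8). The share of all mRNAs called in either direction moved with the setting too. It was 2.42% in the main fit, 1.15% and 1.33% with limma at pseudocounts of 0.1 and 1, and 1.84% with library totals. It was 24.1% in the 6 libraries, 0.0745% in the other 10 and 0.807–7.38% without 1 library. The partner counts thus cannot be read apart from the calls over all mRNAs.

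Some log2FC values reversed. With limma at pseudocounts of 0.1 and 1 and with library totals, they were 0.0261, 0.0256 and 0.0275 for Kcna1, 0.0353, 0.0329 and 0.0413 for Kcna3, 0.0214, 0.0200 and 0.0233 for Kcnmb4, 0.000848, 0.00116 and 0.00804 for Kcnn2, and 0.0182, 0.00912 and 0.0287 for Kcnu1. In the 6 libraries most alike they were 0.0153 for Kcna1, 0.0119 for Kcnab2, 0.0191 for Kcnh3, −0.931 for Kcnmb1, 0.0925 for Kcnmb4 and −0.109 for Kcnn4. In the other 10 they were −0.160 for Kcne2, −0.0331 for Kcnj2, 0.107 for Kcnk13 and 0.0596 for Kcnu1. Without 1 library, the range was −0.0604 to 0.0357 for Kcna3, −0.0662 to 0.0164 for Kcnmb4, −0.0961 to 0.0215 for Kcnn2, −0.0274 to 0.432 for Kcnn4 and −0.169 to 0.0653 for Kcnu1. The r of Kcnj13 was −0.0373 on the log2 scale and −0.301 without the 2 farthest libraries.

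Same-numbered libraries correlated at −0.217 to 0.554 and best with their own number only for numbers 4 and 8. The numbers thus gave no steady sign of pairing, which correlations alone cannot exclude. With the replicate block, 4 channel genes were called (4 lower, 0 higher) and 517 mRNAs in all (2.89%); Kcnv1 was not called (0.0650) and Kcng1 was (0.0390).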
